A study of Mus musculus with 30 samples.

Results

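Transcripts of 9 complement genes were followed in the hippocampus and in the rest of the brain of aged mice with and without B cells: C1qa, C1qb, C1qc, C4b, C3, C3ar1, C5ar1, Itgb2 and Serping1. The genes were listed by name, and all 9 had a probe among the 36717 genes and transcripts of the arrays. The study asked what B cells contribute to disease in mice with mutant genes of familial Alzheimer's disease (AD). RNA of 15 PBS-perfused mice, all labelled C57BL/6j and aged 15–20 months, was hybridized without pooling to 30 Agilent 1-colour arrays. A hippocampal and a brain array with the same number in their labels were taken as 1 mouse. The groups were 3 female WT mice, 2 female JHT mice, 2 female and 3 male 3×TgAD mice, and 2 female and 3 male mice labelled JHT_3xTgAD, called 3×TgAD-BKO here. 3×TgAD mice carry mutant human APP and tau transgenes, which a Thy1 promoter drives in neurons. JHT mice have a deletion of the immunoglobulin JH locus and make no functional B cells, and 3×TgAD-BKO mice carry this deletion together with the AD genes. There were no male WT or JHT mice, so males were compared only within the 3×TgAD background.

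Complement is a cascade of secreted proteins that tags targets and calls in phagocytes. C1q, built of the chains encoded by C1qa, C1qb and C1qc, binds its target and starts the classical pathway, C4 carries it on, and all pathways meet at C3, whose fragments coat the target. In the brain microglia make most C1q, and C1q and C3 are known for marking synapses that microglia then remove, through the receptor CR3 whose beta chain is Itgb2. The small fragments C3a and C5a act through C3ar1 and C5ar1, and Serping1 encodes C1 inhibitor, which stops the proteases of the C1 complex.

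The values are log2 signals, quantile-normalized over the 30 arrays, and a gene's change is a difference of log2 signals. A gene was called where limma's p, adjusted over all 36717 genes and transcripts (Benjamini-Hochberg), was under 0.05. Signals of different probes were not set against each other. The arrays' 75th percentile of intensity was 454 to 824 in the hippocampus and 841 to 1636 in the brain without hippocampus. The hippocampal array of 3×TgAD-BKO male mouse 0 had 432 outlier spots, against 102 to 160 on the others, and no spot of the 9 genes was among them. Of the label checks, Thy1, Xist, Ddx3y and Eif2s3y put 0 of 30 arrays out of place. Neuron, astrocyte and microglia markers were well above background on all 30 arrays. B cell genes could not check the deletion in these perfused tissues, since Cd79a was well above background on 0 arrays, WT included. The arrays lay on 4 slides. The female 3×TgAD and 3×TgAD-BKO arrays of a tissue shared a slide, as did the JHT and WT arrays, whereas 3×TgAD and WT lay on different slides that only the 3×TgAD-BKO males linked. In whole tissue, fewer cells of a type and less RNA per cell cannot be told apart.

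RefSeq (GRCm38.p6) gave a promoter window for 5 of the 9 genes, C1qb, C1qc, C3, C3ar1 and C5ar1. The 250 bases before the start of C1qb, C1qc and C3 are shown, 5′ to 3′ on the strand of the gene, since the C1q chains moved together on these arrays and C3 had a wide range. C1qb lies at chr4:136886201-136886450 on the minus strand, C1qc at chr4:136892915-136893164 on the minus strand, and C3 at chr17:57228137-57228386 on the minus strand. Capitals mark matches to the motifs searched.
C1qb: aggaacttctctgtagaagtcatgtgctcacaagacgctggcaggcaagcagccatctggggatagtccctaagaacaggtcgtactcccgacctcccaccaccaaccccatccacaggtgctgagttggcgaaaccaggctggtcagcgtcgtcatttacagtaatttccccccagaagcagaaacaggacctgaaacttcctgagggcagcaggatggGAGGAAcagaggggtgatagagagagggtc
C1qc: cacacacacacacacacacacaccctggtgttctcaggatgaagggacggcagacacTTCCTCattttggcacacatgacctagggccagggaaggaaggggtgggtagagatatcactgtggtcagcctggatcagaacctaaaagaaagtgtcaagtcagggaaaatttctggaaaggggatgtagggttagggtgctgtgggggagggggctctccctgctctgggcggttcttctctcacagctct
C3: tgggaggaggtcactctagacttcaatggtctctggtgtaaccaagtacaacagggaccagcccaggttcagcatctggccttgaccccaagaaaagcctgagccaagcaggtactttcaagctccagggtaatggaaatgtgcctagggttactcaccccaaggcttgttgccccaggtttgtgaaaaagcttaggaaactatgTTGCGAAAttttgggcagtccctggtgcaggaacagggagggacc
The motifs were searched on both strands: the core of PU.1 sites, GAGGAA, the gamma-activated site, TTCNNNGAA, the AP-1 site, TGANTCA, and a C/EBP motif, TTGCNNAA. C1qb and C1qc each held 1 PU.1 core, which 23.3% of the 32851 windows of this length held, in opposite orientations, at −30 to −25 and −193 to −188 from the start. C3 held 1 C/EBP match at −45 to −38, against 9.56% of all windows. Of the windows not shown, C3ar1 held 1 AP-1 match (6.75% of all windows) and C5ar1 held none of the motifs. The gamma-activated site was in none of these 5 windows and in 7.02% of all. These matches are letters in the sequence, not measured sites. In the RefSeq gene table C1qb, C1qc and C1qa follow each other on chromosome 4 with 0 genes between them.

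Tissues were compared first. Slide and tissue were nearly the same split, since all 15 hippocampal arrays lay on slides 1 and 2 and 14 of 15 brain arrays on slides 3 and 4, with the brain of mouse 0 on slide 2. Over the mean of the 6 groups, 6 of 9 were called between hippocampus and brain, where 51.1% of all genes and transcripts were called, so the count of calls is near the background. C4b (NM_009780) ranged from 13.69 to 14.98 in the hippocampus, with a median of 13.93, and from 13.04 to 13.95 in the brain, with a median of 13.30. It was 0.68 higher in the hippocampus (standard error 0.10, adjusted p = 1.38e-05). Its probe may also detect C4a, a near-identical copy that was not analysed here. The C1q chains were higher in the hippocampus by 0.33 for C1qa (standard error 0.11, adjusted p = 0.0149), 0.28 for C1qb (0.10, 0.0265) and 0.40 for C1qc (0.12, 0.00714). Serping1 was 0.68 lower there (standard error 0.18, adjusted p = 0.00329). C5ar1 was 0.68 lower as well (standard error 0.27, adjusted p = 0.0441), but it was well above background on 4 of 15 hippocampal and 8 of 15 brain arrays. Scaling to the 75th percentile in place of quantile normalization brought its difference to −0.19 (adjusted p = 0.53), and it was called under 9 of 23 alternatives. The calls of C1qa and C1qb were lost without 3×TgAD mouse 1 (adjusted p = 0.0624 and 0.106) or without 3×TgAD-BKO mouse 7 (0.0504 and 0.0776), and that of C1qb also without WT mouse 12 (0.0551) or JHT mouse 14 (0.0536), and with the deposited scores (0.0519). C3, C3ar1 and Itgb2 were not called, with differences from −0.34 to 0.22. C3 was called lower without mice 0 and 8 (−0.47, adjusted p = 0.0298), and C3ar1 higher under scaling to the 75th percentile (0.53, adjusted p = 0.0117). Of 10 microglia genes, 6 were called higher in the hippocampus (median 0.31), and of 6 fibroblast genes 2 were called higher and 3 lower (median −0.65). Of 8 choroid plexus genes 3 were called lower (median −0.99), and of 8 neutrophil genes 1 (median −1.06). Of 8 astrocyte genes 2 were called higher and 5 lower, and of 6 neuron genes 4 and 2. The part of these lists in the differences was not tested. With the slide as a block, a fit added after the values were seen in which the brain array of mouse 0 alone links the tissues, 2 of 9 were called (17.9% of all), both lower in the hippocampus, namely Serping1 (−2.33, adjusted p = 0.00109) and C3 (−3.79, 0.00121). C1qa, C1qb, C1qc and C4b then turned to −0.46, −0.54, −0.70 and −0.31 and none of them was called. Tissue and slide cannot be told apart for those 4 genes.

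The genes also differed among mice. The 3×TgAD-BKO male numbered 0 ranked among the top 3 of 15 for 9 of 9 genes in the hippocampus and in the brain. Male 8 of the same group did so for 6 genes in the hippocampus and 9 in the brain, and JHT female 14 for 6 and 7. The third 3×TgAD-BKO male, mouse 9, did so for none.

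**Figure D1:**
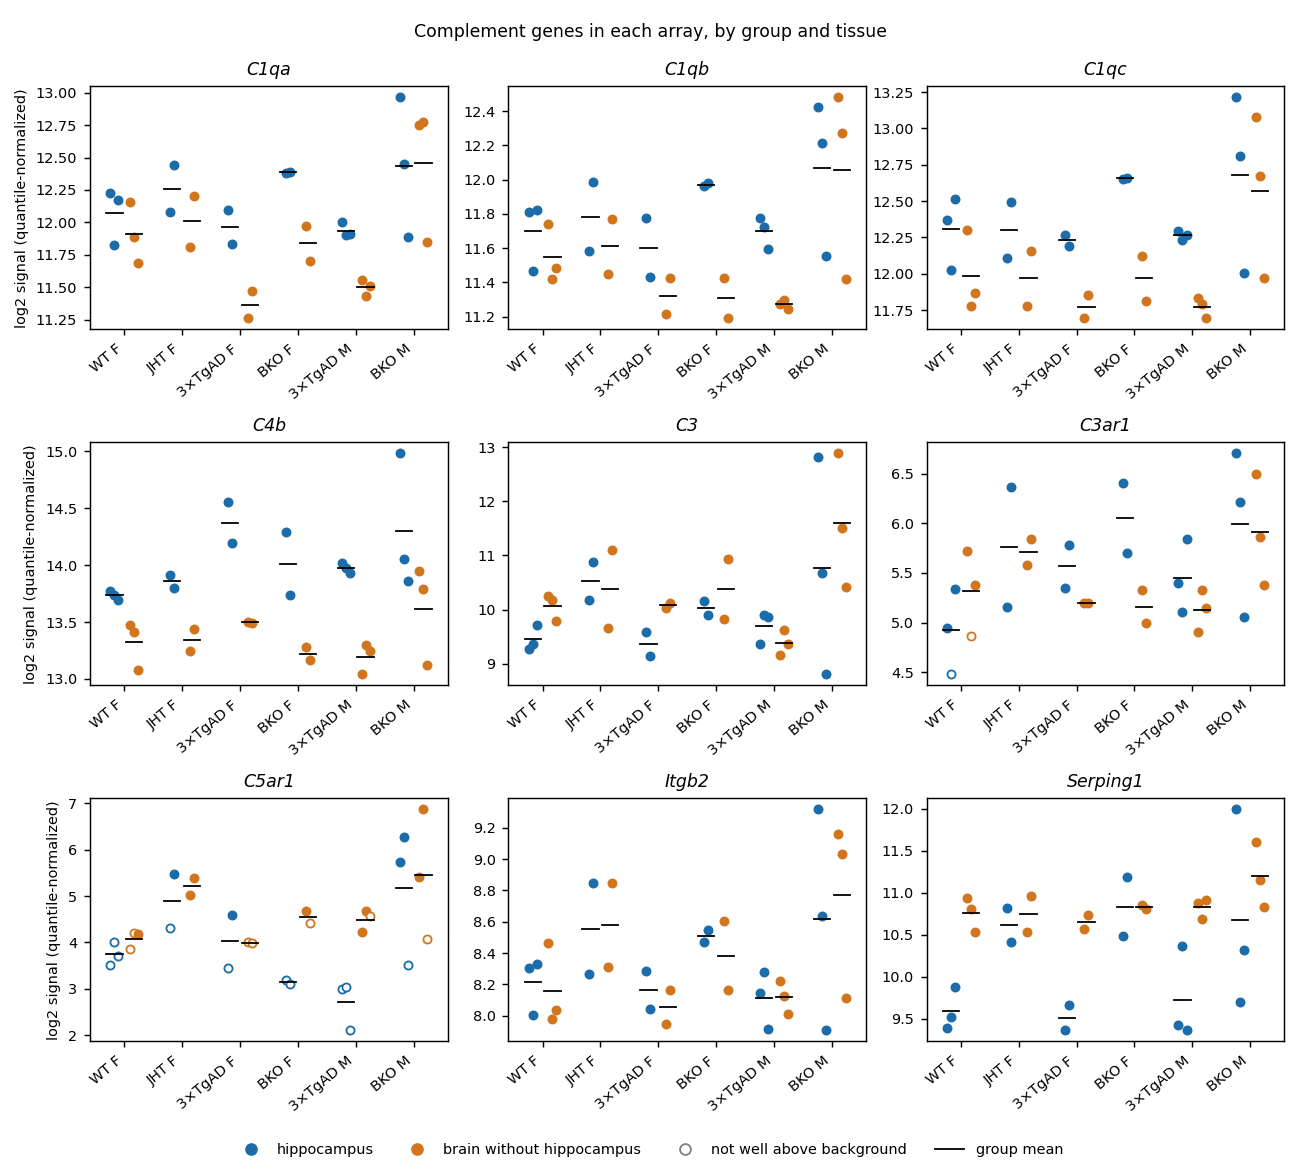
Log2 signal of each gene (vertical axis, quantile-normalized) on every array, by genotype and sex (F, females; M, males; BKO, 3×TgAD-BKO), with hippocampus in blue and brain without hippocampus in orange. Open points were not well above background and lines are group means. In the 3×TgAD-BKO males, mice 0 and 8 lie above mouse 9 for every gene except hippocampal Serping1, where mouse 8 is at 9.70 and mouse 9 at 10.32.

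C1qa (NM_007572) was 12.23, 11.82 and 12.17 in the hippocampus of WT females, 12.08 and 12.44 in JHT females, 12.09 and 11.83 in 3×TgAD females and 12.38 and 12.39 in 3×TgAD-BKO females. In males it was 11.9996, 11.90 and 11.91 in 3×TgAD and 12.96, 12.45 and 11.89 in 3×TgAD-BKO mice 0, 8 and 9. The 3×TgAD-BKO females lay above the 3×TgAD females, and among males mouse 9 was level with the 3×TgAD mice. In the brain C1qa was 12.16, 11.89 and 11.69 in WT, 11.81 and 12.20 in JHT, 11.26 and 11.47 in 3×TgAD and 11.97 and 11.71 in 3×TgAD-BKO females. It was 11.56, 11.43 and 11.51 in 3×TgAD males and 12.75, 12.77 and 11.85 in 3×TgAD-BKO males, so that every 3×TgAD-BKO brain of a sex lay above every 3×TgAD brain of that sex.

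C1qb (NM_009777) encodes the second chain of C1q. Its hippocampal signal was 11.81, 11.47 and 11.82 in WT, 11.58 and 11.98 in JHT, 11.77 and 11.43 in 3×TgAD and 11.96 and 11.98 in 3×TgAD-BKO females. In males it was 11.78, 11.72 and 11.59 in 3×TgAD and 12.42, 12.21 and 11.56 in 3×TgAD-BKO mice. The 2 genotypes with the AD genes overlapped among males and not among females. In the brain it was 11.74, 11.42 and 11.48 in WT, 11.45 and 11.77 in JHT, 11.22 and 11.43 in 3×TgAD and 11.42 and 11.19 in 3×TgAD-BKO females. The brains of 3×TgAD males had 11.28, 11.30 and 11.25, all below 3×TgAD-BKO males at 12.48, 12.27 and 11.42.

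C1qc (NM_007574), the gene of the third chain, followed the same mice. In the hippocampus it was 12.37, 12.03 and 12.52 in WT, 12.11 and 12.49 in JHT, 12.27 and 12.19 in 3×TgAD and 12.65 and 12.66 in 3×TgAD-BKO females. The males had 12.30, 12.23 and 12.26 in 3×TgAD and 13.21, 12.81 and 12.01 in 3×TgAD-BKO, where mouse 9 was the lowest. In the brain it was 12.30, 11.78 and 11.87 in WT, 11.78 and 12.16 in JHT, 11.70 and 11.85 in 3×TgAD and 12.12 and 11.81 in 3×TgAD-BKO females. The brains of 3×TgAD males had 11.83, 11.79 and 11.69 and those of 3×TgAD-BKO males 13.08, 12.67 and 11.97, again without overlap.

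C4b was highest in mouse 0 in both tissues, and in the hippocampus 3×TgAD female 1 came next. There it was 13.78, 13.74 and 13.69 in WT, 13.91 and 13.80 in JHT, 14.55 and 14.20 in 3×TgAD and 14.29 and 13.74 in 3×TgAD-BKO females. Males had 14.02, 13.98 and 13.93 in 3×TgAD and 14.98, 14.06 and 13.86 in 3×TgAD-BKO. Both 3×TgAD females were above all WT and JHT females, and of the other hippocampi only that of 3×TgAD-BKO male 0 was above both. In the brain it was 13.48, 13.41 and 13.08 in WT, 13.24 and 13.44 in JHT, 13.50 and 13.49 in 3×TgAD and 13.28 and 13.17 in 3×TgAD-BKO females, and 13.04, 13.30 and 13.25 in 3×TgAD and 13.95, 13.79 and 13.12 in 3×TgAD-BKO males.

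C3 (NM_009778), the central component, spread over 4.01 log2 units in the hippocampus and 3.72 in the brain, and its second probe followed the first (Pearson r = 0.979 and 0.97985 over 15 arrays). In the hippocampus it was 9.27, 9.37 and 9.72 in WT, 10.18 and 10.88 in JHT, 9.59 and 9.15 in 3×TgAD and 10.16 and 9.90 in 3×TgAD-BKO females. The hippocampi of males had 9.37, 9.89 and 9.86 in 3×TgAD and 12.82, 10.67 and 8.81 in 3×TgAD-BKO, which held the highest and the lowest C3 of all hippocampi. In the brain it was 10.26, 10.17 and 9.80 in WT, 9.66 and 11.10 in JHT, 10.03 and 10.13 in 3×TgAD and 9.83 and 10.93 in 3×TgAD-BKO females. The brains of 3×TgAD males, at 9.17, 9.63 and 9.37, were the lowest, and those of 3×TgAD-BKO males, at 12.89, 11.50 and 10.41, included the highest.

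Of the receptors, C3ar1 (NM_009779), which binds C3a, was dim, and well above background on 28 of 30 arrays. In the hippocampus it was 4.95, 4.48 and 5.34 in WT, 5.16 and 6.37 in JHT, 5.35 and 5.78 in 3×TgAD and 6.41 and 5.70 in 3×TgAD-BKO females, and 5.40, 5.11 and 5.85 in 3×TgAD and 6.71, 6.21 and 5.06 in 3×TgAD-BKO males. In the brain it was 5.72, 4.87 and 5.38 in WT, 5.58 and 5.84 in JHT, 5.19 and 5.20 in 3×TgAD and 5.33 and 4.99 in 3×TgAD-BKO females, and 4.91, 5.33 and 5.14 in 3×TgAD and 6.49, 5.87 and 5.38 in 3×TgAD-BKO males. The arrays without a clear signal were both of WT mouse 11.

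C5ar1 (NM_001173550), the C5a receptor of myeloid cells, was well above background on 12 of 30 arrays. In the hippocampus the 4 arrays with a signal were 3×TgAD female 2 (4.59), JHT female 14 (5.48) and 3×TgAD-BKO males 0 (5.72) and 8 (6.27), and the other 11 arrays lay between 2.11 and 4.32. In the brain the JHT females had 5.03 and 5.39 and the 3×TgAD-BKO males 5.41, 6.87 and 4.08, and the other 10 brains lay between 3.86 and 4.69. The highest value of either tissue was that of mouse 8.

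Itgb2 (NM_008404), the beta chain of CR3 and of other leukocyte integrins, was 8.30, 8.01 and 8.33 in the hippocampus of WT, 8.27 and 8.85 of JHT, 8.29 and 8.04 of 3×TgAD and 8.47 and 8.55 of 3×TgAD-BKO females. Hippocampi of males had 8.15, 8.28 and 7.92 in 3×TgAD and 9.32, 8.64 and 7.91 in 3×TgAD-BKO. Mouse 0 was the highest, followed by JHT female 14. In the brain the values were 8.47, 7.98 and 8.04 in WT, 8.31 and 8.85 in JHT, 7.95 and 8.17 in 3×TgAD and 8.60 and 8.16 in 3×TgAD-BKO females, and 8.22, 8.13 and 8.01 in 3×TgAD and 9.16, 9.03 and 8.11 in 3×TgAD-BKO males.

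Serping1 (NM_009776), the inhibitor, was, in the hippocampus, 9.39, 9.52 and 9.87 in WT, 10.82 and 10.41 in JHT, 9.36 and 9.66 in 3×TgAD and 10.48 and 11.19 in 3×TgAD-BKO females. Males had 9.43, 10.37 and 9.37 in 3×TgAD and 11.996, 9.70 and 10.32 in 3×TgAD-BKO. All 4 females with the JHT deletion lay above all 5 females without it. In the brain its range was narrower, from 10.53 to 11.61, with 3×TgAD-BKO males at 11.61, 11.16 and 10.82 and 3×TgAD males at 10.88, 10.69 and 10.91. Its second probe correlated with the first at r = 0.970 in the hippocampus and 0.946 in the brain.

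3×TgAD against WT females asks what the AD genes do with B cells present. In the hippocampus 0 of 9 genes were called, where 0.746% of all genes and transcripts were, and the median change of the 9 was −0.08 against −0.01 over all. C4b had the smallest p, with a mean of 14.37 ± 0.25 in 3×TgAD and 13.74 ± 0.04 in WT (SD, n = 2 and 3). The difference was 0.64 (standard error 0.28, limma adjusted p = 0.408). With the slide as a block the difference turned to −0.39, since the groups then meet only through 3×TgAD-BKO males. The other changes ran from −0.11 to 0.65. In the brain 0 of 9 were called (1.15% of all), with changes from −0.54 for C1qa to 0.17 for C4b. Slide and genotype are largely confounded here, and the difference of C4b cannot be told apart from the slide. The change did not differ by a called amount between tissues for any of the 9, where 0.0926% of all were called. For C4b that difference was 0.47 (95% interval −0.29 to 1.22). Of the marker lists, 1 of 6 endothelial genes was called lower in the hippocampus (median −0.40), and in the brain 4 of 6 were lower at an unadjusted p under 0.05 (median −0.51), with 0 called. The neutrophil list was at 7.38 and 9.05 in 3×TgAD brains against 6.27 to 6.94 in WT, with 1 of 8 higher at that p. Their part was not tested.

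3×TgAD-BKO against 3×TgAD females asks what the loss of B cells does in the AD background, and their arrays shared a slide. No gene of the 9 was called in the hippocampus (0.37% of all) or in the brain (1.12% of all). In the hippocampus 7 of 9 were higher in 3×TgAD-BKO (47% of all), with a median change of 0.43 against −0.02 over all genes and transcripts, and C4b and C5ar1 were lower. The groups did not overlap for 7 of 9, but with 2 against 2 mice that held for 56.7% of all genes. The largest change was that of Serping1, at 10.84 in 3×TgAD-BKO and 9.51 in 3×TgAD, a difference of 1.32 (standard error 0.62, 95% interval −0.05 to 2.70, adjusted p = 0.321). The 6 fibroblast genes moved with it, by a median of 1.65, with 4 higher at an unadjusted p under 0.05. On the hippocampal arrays the mean log2 signal of this list was 8.79 and 9.50 in 3×TgAD and 10.72 and 11.22 in 3×TgAD-BKO females, and its part in the result was not tested. The choroid plexus list was at 9.80 and 9.90 in 3×TgAD and at 9.17 and 13.82 in 3×TgAD-BKO females. In the brain the changes ran from −0.27 for C4b to 0.47 for C1qa (median of the 9, 0.19), apart from C5ar1, which was well above background on 1 of the 4 arrays. There 6 of 9 were higher (53.1% of all), and 4 of 9 did not overlap between the groups (54.2% of all).

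**Figure D2:**
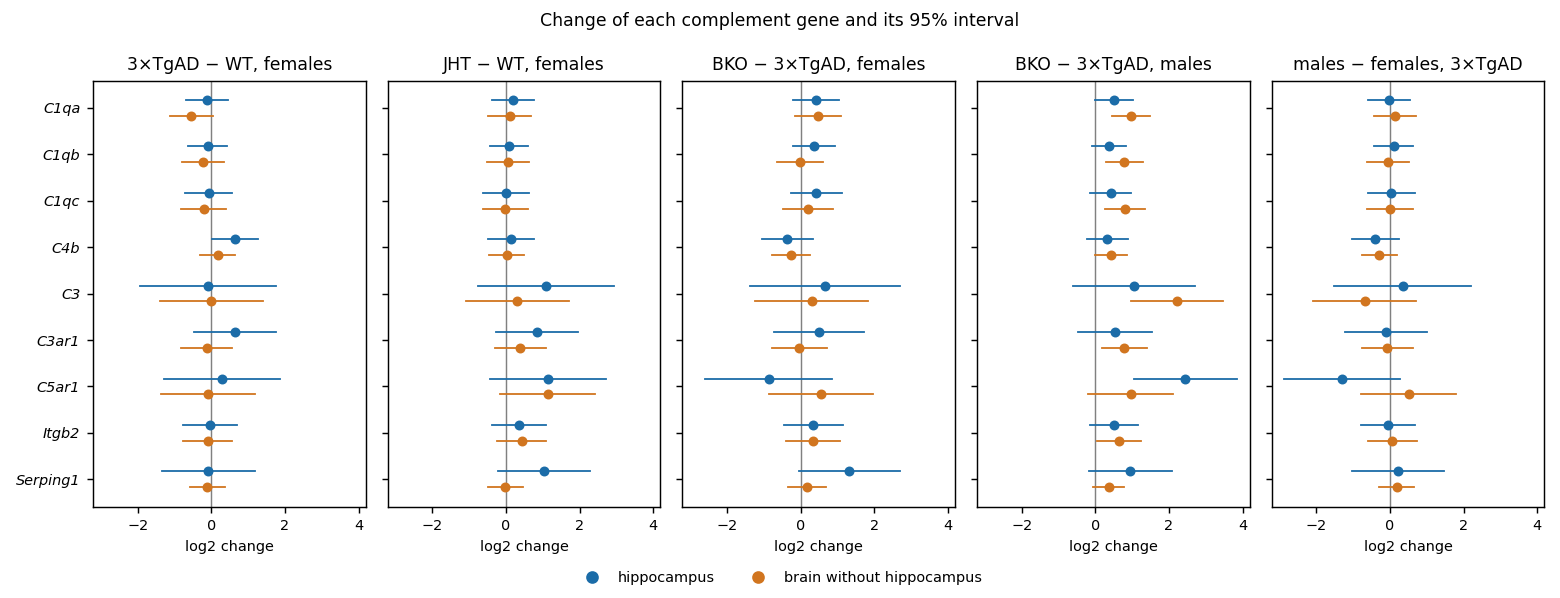
Log2 change of each gene (points) with its 95% interval from limma (lines) in the 5 comparisons of genotype and sex, with hippocampus in blue and brain without hippocampus in orange. In 3×TgAD-BKO against 3×TgAD males all points lie to the right of 0, and the brain intervals of C1qa, C1qb, C1qc, C3, C3ar1 and Itgb2 and the hippocampal interval of C5ar1 do not reach 0.

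In males the same comparison gave 9 of 9 genes higher in 3×TgAD-BKO in each tissue, and 0 of 9 called in the hippocampus (0.847% of all called) or in the brain (0.961%). A change above 0 was found for 52.1% of all genes and transcripts in the hippocampus and 47.7% in the brain. In the brain the median change of the 9 was 0.79 against −0.01 over all, and 6 genes had an unadjusted p under 0.05 (11.5% of all). C1qa had means of 12.46 in 3×TgAD-BKO and 11.50 in 3×TgAD males (n = 3 each), a difference of 0.96 (standard error 0.23, adjusted p = 0.107). C1qb differed by 0.78 (0.23, 0.197) and C1qc by 0.80 (0.25, 0.229). C3 had the largest difference, 2.21 (standard error 0.57, adjusted p = 0.13), a 4.62-fold higher mean. C3ar1 differed by 0.79 (0.28, 0.302) and Itgb2 by 0.65 (0.27, 0.391). The groups did not overlap for 5 of 9 genes, which held for 16.6% of all. In the hippocampus the median change was 0.51 against 0.01 over all, and the groups did not overlap for 1 of 9 genes (20.4% of all), and only C5ar1 had an unadjusted p under 0.05 (18.2% of all) (adjusted p = 0.102). C5ar1 was well above background in none of the 3×TgAD males and in 2 of the 3×TgAD-BKO males, so only a bound is given. The mean of 3×TgAD-BKO males was at least 1.66-fold higher, with mouse 9 (3.51) taken as read though not well above background. Such a bound raises each array of the group without a signal to that array's lowest signal that was well above background.

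These values rested on mice 0 and 8. Without both, which leaves mouse 9 alone, 0 of 9 were called, the median change fell to −0.14 in the hippocampus and to 0.15 in the brain, and Itgb2 in the brain was at −0.0093. Without mouse 9, 2 genes were called in the hippocampus, C1qc (0.75) and C5ar1, whose size could not be measured beyond the bound above. In the brain 6 were called then, namely C1qa, C1qb, C1qc, C4b, C3 and Itgb2, at changes from 0.67 to 2.80. The share of all genes and transcripts called without mouse 9 was not computed, so these counts have no background either. Within the slide that held both groups, mouse 0 alone stood against the 3×TgAD males in the hippocampus and mouse 8 alone in the brain. There C3 was at 3.11 and Serping1 at 2.27 in the hippocampus, and C1qa at 1.27 and C1qb at 0.9999 in the brain. With the slide as a block 5 genes were called in the hippocampus and 3 in the brain. The share of all genes and transcripts called in that fit was not computed, so these counts have no background. Fits that leave 1 mouse in a group take the spread around it from the other groups.

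The neutrophil markers stood high in the same mice. The mean log2 signal of 8 neutrophil genes was 10.47, 10.11 and 11.11 in the hippocampi of mice 0, 8 and 14, against 5.63 to 8.03 in the other 12, and 11.63, 10.90 and 11.27 in their brains, against 6.08 to 9.05. In mouse 9 the neutrophil list was at 6.57 and 8.10. Of the 8 genes 5 in the hippocampus and 8 in the brain were higher in 3×TgAD-BKO males at an unadjusted p under 0.05, with 0 called, and S100a8, S100a9, Camp and Lcn2 were well above background on all 30 arrays, Retnlg on 28, Ngp on 15, Ltf on 14 and Mmp8 on 11. The 10 microglia genes averaged 12.74, 12.16 and 11.94 in the hippocampi of mice 0, 8 and 14, against 11.70 to 12.17 in the other 12, and 12.08, 11.98 and 11.85 in their brains, against 11.49 to 11.93. Mouse 0 was above those 12 in both tissues and mouse 8 only in the brain, while mouse 14 was within their range in both. Of these 10 genes 5 in the hippocampus and 3 in the brain were higher in 3×TgAD-BKO males at an unadjusted p under 0.05, and 1 was called in the brain. Of 6 endothelial genes 2 in the hippocampus and 3 in the brain were higher at that p (median 0.39 in each), and 1 was called in the hippocampus. Their part in the complement values was not tested.

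**Figure D3:**
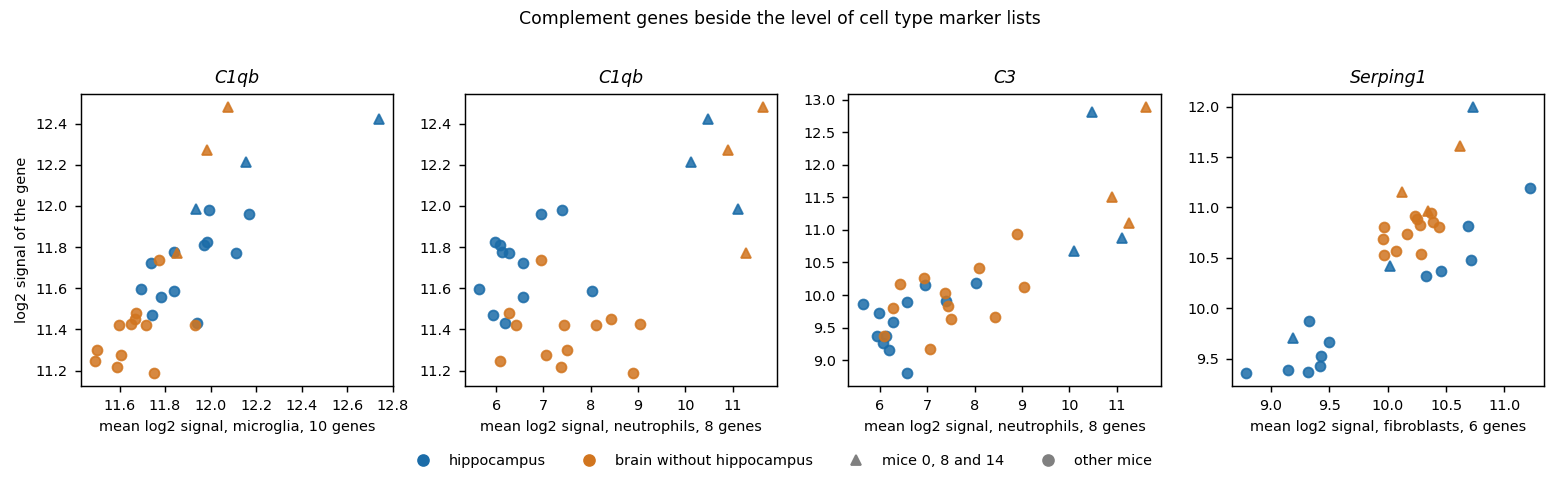
Log2 signal of a gene (vertical axis) against the mean log2 signal of a marker list (horizontal axis) on all 30 arrays, with hippocampus in blue, brain without hippocampus in orange and mice 0, 8 and 14 as triangles. The neutrophil list is above 10 only on the arrays of those mice, which also hold the highest C3 in each tissue, and hippocampal Serping1 is above 10 only where the fibroblast list is above 10.

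JHT against WT females, the loss of B cells without the AD genes, gave 0 of 9 called in the hippocampus (0.0926% of all) and 0 of 9 in the brain (0.161%). The median change was 0.34 in the hippocampus and 0.10 in the brain. Apart from C5ar1, the changes ran from −0.0045 to 1.08 and from −0.02 to 0.42. C5ar1 was well above background in no WT and 1 JHT hippocampus, and in 1 WT and 2 JHT brains, so its change is not given. In the hippocampus 8 of 9 genes were higher in JHT (44.3% of all) and in the brain 7 of 9 (47.9%). Hippocampal Serping1 was 1.03 higher in JHT (standard error 0.57, adjusted p = 0.71). Marker lists moved in the same hippocampi. The 8 choroid plexus genes averaged 13.80 and 12.87 in JHT against 8.07 to 9.02 in WT, with 8 of 8 higher at an unadjusted p under 0.05 (median 5.11) and 0 called, and the median change of the fibroblast genes was 1.09. The neutrophil list was at 8.03 and 11.11 in JHT against 5.94 to 6.07 in WT. In the brain the neutrophil list was at 8.43 and 11.27 against 6.27 to 6.94, while the choroid plexus and fibroblast medians were −0.26 and −0.05. The part of these lists was not tested. The change with the JHT deletion differed between females with and without the AD genes for 0 of 9 genes in either tissue (0.131% and 0.379% of all called). This comparison shares no arrays with 3×TgAD-BKO against 3×TgAD, while it shares the WT mice with 3×TgAD against WT.

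A contrast chosen after the values were seen averaged the 3 comparisons of the deletion, in 3×TgAD females, in 3×TgAD males and in females without the AD genes. All 9 genes were higher with the deletion in both tissues, where 48% and 49.1% of all genes and transcripts were, and 0 of 9 were called (0.613% and 1.62% of all). In the hippocampus the changes ran from 0.03 for C4b to 1.10 for Serping1 (standard error 0.33, unadjusted p = 0.00678, adjusted p = 0.247), with C1qa at 0.37 (0.15, adjusted p = 0.479). In the brain they ran from 0.06 for C4b to 0.94 for C3 (standard error 0.37, adjusted p = 0.302). C1qa was 0.51 higher there (standard error 0.15, adjusted p = 0.153) and Itgb2 0.47 (0.17, 0.272). C5ar1 was at 0.88 (0.34, 0.288), but it was well above background on 8 of 15 brain arrays, so this size is uncertain. With the slide as a block C1qa, C3, Itgb2 and Serping1 were called in the hippocampus and C1qa and C5ar1 in the brain. Without mouse 9 C1qa, C1qb, C5ar1 and Itgb2 were called in the brain. The share of all genes and transcripts called was not computed for either of these fits. Without 3×TgAD-BKO males 0 and 8 and JHT female 14 none was called, the median change of the 9 was 0.11 in the hippocampus (from 0.40) and 0.16 in the brain (from 0.38), and 7 of 9 stayed above 0 in each tissue. Those below 0 were C4b (−0.10) and C1qc (−0.0091) in the hippocampus and C4b (−0.14) and Serping1 (−0.018) in the brain. The share of all genes and transcripts above 0 without those mice was not computed. Hippocampal Serping1 was still at 1.05 (adjusted p = 0.137). In this contrast 2 of 8 neutrophil genes were called higher in the hippocampus and 1 in the brain, and 1 of 6 endothelial genes in each tissue (medians 0.41 and 0.36). Of 6 fibroblast genes 4 were higher in the hippocampus at an unadjusted p under 0.05 (median 1.17), with 0 called, and of 10 microglia genes 1 in the hippocampus and 4 in the brain. The part of these lists was not tested.

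Sex was compared among 3×TgAD mice and in the size of the change. Males against females of 3×TgAD gave 0 of 9 called in the hippocampus (0.0409% of all) and in the brain (0.0572%), with no unadjusted p under 0.05. The change of 3×TgAD-BKO against 3×TgAD differed between females and males by a called amount for 0 of 9 in either tissue (0.0245% and 0.101% of all). In the brain all 9 differences were below 0, while 54.9% of all genes and transcripts had one above 0. This means a smaller rise or a fall in females and ran from −0.18 for Serping1 to −1.91 for C3, with C4b at −0.70 (standard error 0.30, adjusted p = 0.563). The change in males rested on mice 0 and 8, as given above. The 8 neutrophil genes had a median of −2.96 in the same contrast, with 1 lower at an unadjusted p under 0.05 and 0 called. Their part was not tested. Between the tissues, the change in females differed for 0 of 9 genes (0.123% of all), with Serping1 at 1.14 (95% interval −0.28 to 2.56). There the 6 fibroblast genes had a median of 1.46, with 3 higher at an unadjusted p under 0.05 and 0 called. The median of the choroid plexus list was 1.60, and the part of both lists was not tested.

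The levels in the 2 tissues of a mouse were set against each other in a comparison added after the values were seen and computed for each of the 9 genes. Pearson's r passed 0.05 after adjustment for 8 of 9 and Spearman's rho for 0 of 9. Over the 15 mice Pearson's r between hippocampus and brain was 0.839 for Itgb2 (permutation p = 0.00024, adjusted over the 9 genes 0.00216, Spearman's rho 0.671, p = 0.00747, adjusted 0.0631). It was 0.808 for C1qc (p = 0.00085, adjusted 0.00354, rho 0.596, p = 0.021, adjusted 0.0631), 0.761 for C1qa (0.00118, 0.00354, rho 0.618, p = 0.0162, adjusted 0.0631) and 0.765 for C3 (0.0051, 0.00765, rho 0.289, p = 0.294, adjusted 0.353). For C4b r was 0.648 (p = 0.0118, adjusted 0.0152, rho 0.518, p = 0.0502, adjusted 0.113), for C3ar1 0.56804 (0.0253, 0.0284, rho 0.279, p = 0.314, adjusted 0.353) and for C5ar1 0.711 (0.00328, 0.0059, rho 0.296, p = 0.283, adjusted 0.353). Serping1 had the lowest r, 0.424 (p = 0.114, adjusted 0.114, rho 0.0179, p = 0.953). Without the 2 mice farthest from the median hippocampal level, r fell to 0.653 for Itgb2, 0.372 for C1qc, 0.528 for C1qa, 0.537 for C3, 0.245 for C4b, 0.411 for C3ar1, 0.325 for C5ar1 and 0.158 for C1qb, from 0.735 for C1qb with all mice, and for Serping1 it turned to −0.241 without mice 0 and 7. These were mice 0 and 14 for Itgb2, 0 and 9 for C3, and 0 and 8 for the C1q chains. Leaving out the most extreme mice of a gene narrows its range, which by itself can lower r. The fall therefore cannot tell what a relation rests on. With all mice, r of the deviations from group means ran from 0.271 for Serping1 to 0.856 for C1qc, and was 0.811 for C1qb. Mice 0, 8 and 9 are in these values too.

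**Figure D4:**
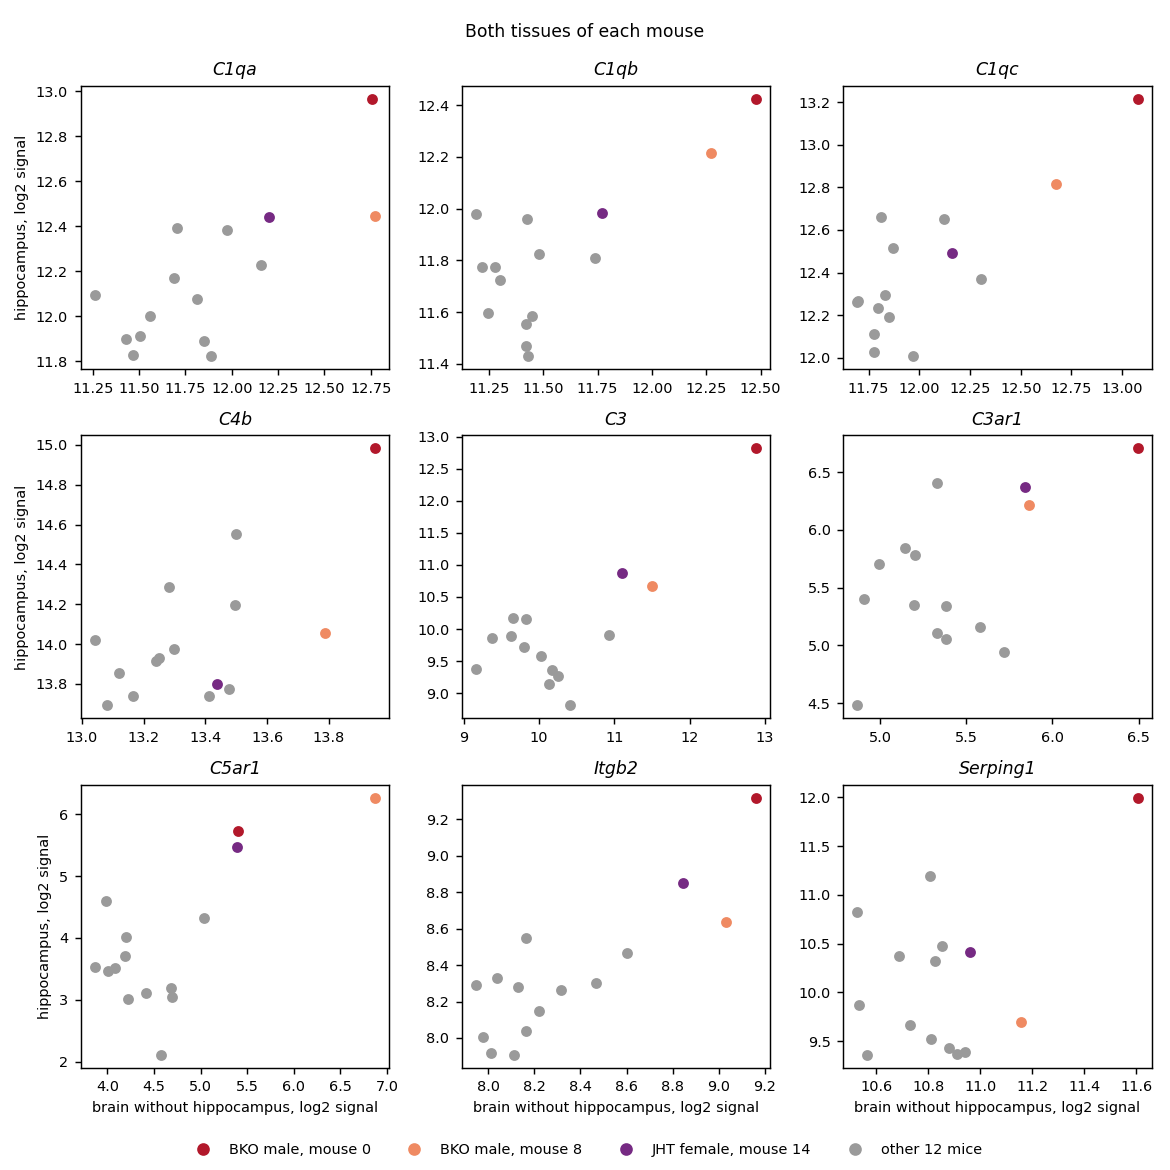
Log2 signal in the hippocampus (vertical axis) against that in the brain without hippocampus (horizontal axis) for each of the 15 mice, 1 panel for each gene. Mice 0 and 8 (3×TgAD-BKO males, red and orange) lie at the upper right in most panels, while in the Serping1 panel mouse 8 is high in the brain (11.16) and low in the hippocampus (9.70).

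Across the 30 arrays, after the mean of each tissue was subtracted, the C1q chains were the most alike of the 9 genes, with Pearson's r from 0.925 for C1qa and C1qc to 0.956 for C1qb and C1qc, and C5ar1 and Serping1 the least, at 0.349. Among 13745 genes well above background on all arrays, Fcer1g, the gamma chain of Fc receptors, was the closest gene to C1qb (r = 0.961) and C1qc (0.966) and the third for C1qa (0.923), after the other chains. Itgb2 was closest to Rac2 (0.950), a GTPase of blood cells, Lcp1 (0.944) and Was (0.930). C3 was closest to Rac2 (0.864), Lcp1 (0.857) and Alox5ap (0.851), and C3ar1 to Rac2 (0.813), C1qc (0.797) and Fermt3 (0.787). C5ar1 was closest to Pilra (0.897), Arpc1b (0.887) and Sh3tc1 (0.875). C4b was closest to Mpeg1 (0.812), which encodes a pore-forming protein of macrophages, Phf11b (0.769) and Rnf130 (0.769). Serping1 was closest to Itih2 (0.906), the collagen gene Col1a2 (0.896) and the laminin gene Lamc3 (0.894). These values describe arrays that share mice and slides, and most carry the same high arrays of mice 0 and 8.

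A wider list of 46 other complement genes had 45 with a probe. In the brain 2 were called higher in 3×TgAD-BKO than in 3×TgAD males (0.961% of all called) and 2 in the same comparison of females (1.12% of all), with none called lower, and none was called in the hippocampus of females (0.37% of all). In 3×TgAD against WT 1 was called lower in the brain (1.15% of all) and none in the hippocampus (0.746%). In JHT against WT (0.0926% of all in the hippocampus, 0.161% in the brain) and between the sexes (0.0409% and 0.0572%) none was called in either tissue. Cd59a, which blocks the membrane attack complex, was higher in the brain of 3×TgAD-BKO mice of both sexes. It was 11.46 and 11.55 against 10.56 and 10.69 in females, a difference of 0.88 (standard error 0.08, adjusted p = 0.000252), and 11.43, 11.36 and 11.46 against 10.61, 10.51 and 10.61 in males, 0.84 (0.06, 6.55e-05). All 5 3×TgAD-BKO brains were above all other 10, and mouse 9 was no exception. In JHT brains Cd59a was 10.67 and 10.67 and in WT brains 10.80, 10.83 and 10.82, so the change with the deletion differed between females with and without the AD genes (1.02, standard error 0.10, adjusted p = 0.00152). In the hippocampus Cd59a was 10.24 and 11.09 in 3×TgAD-BKO against 9.23 and 9.06 in 3×TgAD females (1.52, adjusted p = 0.17), and 10.48 and 9.60 in JHT against 8.83, 9.12 and 9.02 in WT (1.05, unadjusted p = 0.0280, adjusted 0.602). There the change with the deletion did not differ by a called amount between females with and without the AD genes (0.47, standard error 0.61, adjusted p = 0.830). In hippocampi of males it was 9.78, 9.49 and 9.97 in 3×TgAD-BKO against 9.32, 10.56 and 9.19 in 3×TgAD (0.06, adjusted p = 0.968), and the change of females minus that of males was 1.46 (adjusted p = 0.18, unadjusted 0.0297). The hippocampi with the highest Cd59a, of mice 7, 4 and 13, had the choroid plexus list at 13.82, 14.01 and 13.80, and its part was not tested.

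C1rb, a protease gene of the C1 complex with a close copy in C1ra, was 6.36, 5.98 and 6.22 in the brain of 3×TgAD-BKO males and 4.04, 3.98 and 4.05 in 3×TgAD males, where it was not well above background. Its signal in 3×TgAD-BKO males was higher by at least 3.32-fold (adjusted p = 0.00319), while the 3×TgAD-BKO females had 4.44 and 4.19. Colec11, a soluble lectin of the lectin pathway, was 6.52 and 6.41 in the brain of 3×TgAD females, below WT at 7.22, 7.12 and 7.11 and below 3×TgAD-BKO females at 7.27 and 7.35. The difference from WT was −0.68 (standard error 0.13, adjusted p = 0.0308), with the slide as a block −0.40 (adjusted p = 0.313), and without any 1 of the 5 mice the adjusted p was 0.0675 to 0.164. It was called under 5 of 14 alternatives. The difference of 3×TgAD-BKO from 3×TgAD females, on a shared slide, was 0.84 (standard error 0.14, adjusted p = 0.0166), with 0.0602 without 3×TgAD-BKO mouse 7 and 0.0787 without 3×TgAD mouse 2. This difference was called under 8 of 13 alternatives.

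Between tissues 7 of the 45 were called higher in the hippocampus and 13 lower, where 51.1% of all genes and transcripts were called in either direction. C4bp, the binding protein of C4b, was well above background on 15 of 15 hippocampal and 0 of 15 brain arrays, and was at least 5.98-fold higher in the hippocampus (adjusted p = 1.81e-18). Lower in the hippocampus were Cd59a, by a log2 change of −1.22 (adjusted p = 4.67e-08), and C2, a protease of the classical pathway, by −1.08 (3.55e-07). With the slide as a block C4bp was still called (adjusted p = 2.19e-07), while Cd59a and C2 were not (0.0948 and 0.103). Mbl2, a mannose-binding lectin, and Cd59b were called lower there too, but Mbl2 was well above background on 5 of 15 hippocampal and 15 of 15 brain arrays and Cd59b on 1 and 6, so no size is given.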

How the data were processed

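The authors perfused the mice, hybridized Cy3-labelled RNA to Agilent arrays and deposited scanner files of Agilent Feature Extraction 12.0.3.1, whose processed intensity of each spot is corrected for background and trends within the array but not normalized between arrays. Median intensities of the spots and their surroundings, from the same files, served one alternative. The authors also deposited scores, which were Z scores of the log10 intensity within an array. Groups and array numbers, which were used as mouse numbers, came from the labels.

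Processed intensities, without 3671 control spots and flagged outlier spots, were put on the log2 scale and quantile-normalized across all 30 arrays. Of several probes, a gene took the one of highest mean, as in the methods (R 4.3.3, limma 3.58.1). Accessions gave a symbol to 28331 of 55681 probes. limma was fitted to 6 groups over the 15 arrays of a tissue, or to 12 groups over all 30 arrays for the tissues, with Benjamini-Hochberg adjustment over all genes at 0.05. Standard errors are limma's, permutation tests were two-sided with 100000 resamples, and the analysis was tested on simulated data. Precision is set by the few arrays: 2 against 2 mice cannot go below p = 0.333 in a permutation test. No spot was saturated.

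All 9 genes are named. A change has its error where its unadjusted p was under 0.05, of the wider list only genes that were called (the 5 largest), and for likeness the 3 closest genes. Serping1, C5ar1 and C4b were also given where their change was the largest, which was chosen after their values were seen. The genes and lists were chosen with earlier results of these data known. The wider list held C1ra, C1rb, C1s1, C1s2, C2, C4a, Masp1, Masp2, Mbl1, Mbl2, Fcna, Fcnb, Colec10, Colec11, Cfb, Cfd, Cfp, Hc, C6, C7, C8a, C8b, C8g, C9, Cfi, C4bp, Cd55, Cd55b, Cd59a, Cd59b, Cd46, Cr1l, Clu, Vtn, Csmd1, Csmd2, Csmd3, Susd4, Srpx2, C5ar2, Cr2, Itgam, Itgax, Vsig4 and Cd93.

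Marker lists were microglia (Cx3cr1, P2ry12, Tmem119, Csf1r, Aif1, Fcrls, Siglech, Ptprc, Cd68), choroid plexus (8 genes, Folr1 and Kcnj13 among them), endothelium (Cldn5, Pecam1, Cdh5, Flt1, Slco1a4, Tek), fibroblasts (Col1a1, Col1a2, Dcn, Lum, Slc6a13, Igf2) and neutrophils (S100a8, S100a9, Ngp, Camp, Ltf, Lcn2, Mmp8, Retnlg). A few items of the study and of these lists are not reported here.

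A hippocampal and a brain array of the same number, which always shared genotype and sex, were taken as 1 mouse. The labels do not name the mice. Deviations from group means correlated between them with a median r of 0.105 over 19494 genes (−0.178 to 0.240, 8 of 15 above 0.1), against −0.0446 for different mice. The mouse was a block in an alternative. The other alternatives were the slide as a block, leaving out each mouse, scaling to the 75th percentile, quantile normalization within a tissue, the deposited scores, normexp with an offset of 50, dim probes removed, averaging over probes of a gene, a fit to the compared groups alone and the methods' t-test.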

Additional observations from a re-analysis of the deposited data

How the results depend on the processing

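With a few mice in a group, the calls among the 9 genes depended on the slide and on single mice, and the cause was not tested. The counts below have no share of all genes and transcripts beside them, so they have no background. The exception is the slide as a block between tissues, where 17.9% of all were called. In 3×TgAD-BKO against 3×TgAD males, limma's unadjusted p was under 0.05 for 18.2% of all in the hippocampus and 11.5% in the brain. Counts of 1 or 2 from the unadjusted t-test may therefore be near background. In 3×TgAD-BKO against 3×TgAD males 5 genes were called in the hippocampus with the slide as a block and 7 within the slide that held both groups, and 3 and 3 in the brain, where the methods' t-test without adjustment gave 2. Leaving out 1 mouse gave 0 to 2 calls in the hippocampus and 0 to 6 in the brain, and without mice 0 and 8 Itgb2 in the brain turned to −0.0093. In 3×TgAD against WT the slide as a block gave 1 call in the hippocampus (C3, −3.16), with C4b at −0.39, and 2 in the brain (C1qa, −1.47, and C5ar1), and that t-test gave 1 in the hippocampus. The unadjusted t-test gave 1 call in 3×TgAD-BKO against 3×TgAD females in each tissue, 2 in the hippocampus and 1 in the brain of JHT against WT, and 1 in the brain between sexes. For the difference between females and males the slide as a block gave 1 call in each tissue (C4b, −1.37, and C5ar1), and leaving out 1 mouse 0 to 1 in the hippocampus, which was C5ar1 without mouse 9, a gene well above background in no 3×TgAD male and no 3×TgAD-BKO female there. For the mean over the 3 comparisons of the deletion it gave 4 and 2, and leaving out 1 mouse 0 to 4 in the brain. Between tissues leaving out 1 mouse gave 3 to 6 calls, and C1qc and C4b were called under 22 of 23 alternatives and Serping1 under 23. With the slide as a block 2 were called between tissues, C1qa turned to −0.46, C1qb to −0.54, C1qc to −0.70 and C4b to −0.31. With the mouse as a replicate block, which pairs the tissues, the 6 calls were the same, with adjusted p = 0.000967 for C1qa and 0.00103 for C5ar1, and it changed no call of the 9 genes in the other comparisons of tissues. No paired fit was made between genotypes, which share no mouse numbers. Quantile normalization within a tissue was not applied to differences between tissues. Of the 9 genes, signal over background limits C5ar1 and C3ar1.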

Other observations

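Further complement genes, chosen after their values were seen, were high in 3×TgAD-BKO males 0 and 8 alone. C1s1, a protease of the C1 complex, was 10.17 and 9.18 (log2 signal) in their hippocampi and 9.52 and 9.83 in their brains, against 5.85 to 7.62 and 6.49 to 7.42 in the other 13 mice. C1s2, a near-identical copy that the probes need not separate, was 10.23 and 9.29 against 5.51 to 7.33 in the hippocampus and 9.53 and 9.98 against 6.40 to 7.68 in the brain. Cfb, the gene of factor B of the alternative pathway, was 10.53 and 9.29 against 3.31 to 6.85 in the hippocampus and 9.63 and 10.09 against 5.24 to 7.34 in the brain. JHT female 14, whose neutrophil list was as high, had 6.85 and 7.18 for Cfb.

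The C1ra probe read 4.47 in the hippocampus of mouse 0, where it was not well above background, against 7.58 to 9.62 on the other hippocampal arrays and 9.86 in the brain of that mouse.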
